A study of Mus musculus with 4 samples.

Results

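Matrix metalloproteinases (MMPs), ADAMTS proteases and tissue inhibitors of metalloproteinases (TIMPs) were followed in mouse osteosarcoma grafts with and without HIF-1alpha. The members were all protein-coding genes of the deposited table whose symbol is Mmp with a number and an optional a or b, Adamts with a number, or Timp1 to Timp4. This gave 45 of 55487 genes, made up of 22 MMP, 19 ADAMTS and 4 TIMP genes. Of these, 29 had a mean of at least 1 CPM (reads of a gene per 1000000 counted reads of the library) over the 4 libraries. The other 16 had a lower mean, and 5 of those 16 had no read in any library.

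The knockout group consisted of 3 grafts of AXT cells with the genotype HIF-1alpha KO, from the lines HIF-1alphaKO AXT1-1, HIF-1alphaKO AXT1-2 and HIF-1alphaKO AXT2. The control group was 1 graft of the line Mock AXT with the genotype WT. AXT is a mouse osteosarcoma line made from bone marrow stromal cells that lack Ink4a/Arf and overexpress c-MYC, so knockout and mock cells share both changes. All cells were placed in matrigel and given to C57BL/6scid mice, which lack mature T and B cells but keep their myeloid and stromal cells, and the grafts were taken on day 1. The age and sex of the hosts, whether each line was 1 clone, and whether each graft came from its own animal are not given in the sources used here. The deposited knockout columns are called c11, c15 and c22. Which line each of them holds is also not given, so they were used as 3 libraries of 1 group.

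MMPs are zinc proteases that cut collagens and other matrix proteins, and they are made as precursors that become active once a propeptide is removed or displaced. ADAMTS proteases are secreted relatives that trim procollagens, cut the proteoglycans aggrecan and versican, or act on microfibrils. TIMPs block the active site of MMPs and of some ADAMTS proteases, and they differ in the enzymes that they block. In bone, MMP13 and MMP14 of cells of the osteoblast lineage and MMP9 of osteoclasts take part in matrix turnover. HIF-1alpha is the oxygen-regulated subunit of HIF-1, a transcription factor that binds a short hypoxia response element whose core reads ACGTG or GCGTG.

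Promoter sequence was searched for that core because the groups differ in the factor that binds it. RefSeq windows (GRCm38.p6) that run from 250 bases before to 50 bases after a gene start were matched by symbol for 31 of the 45 genes, with 34 windows in all. Both strands were searched, and the core ACGTG or GCGTG was found in 15 of the 34 windows, against 43.8% of all 32851 RefSeq windows of the same length. TGANTCA, the site of the AP-1 factors that drive many MMP genes, was found in 7 of the 34 windows, against 7.81% of all windows. The palindrome CACGTG, which always holds an ACGTG on each strand, was found in 2 of the 34, against 7.15% of all windows. A match is a run of letters and not a bound site. The 250 bases before the start follow for 7 genes. Mmp28, Mmp11 and Mmp15 are the 3 genes with an unadjusted edgeR p under 0.05 in the comparison that follows, and Mmp14 has the highest read level. Adamts17 has 3 matches of the core, the most of the genes tested, if both strands of its CACGTG palindrome are counted. With the palindrome counted once it has 2, as Timp1 and Adamts3 do. Mmp13 and Mmp3 stand for the gene cluster on chromosome 9. Capitals mark matches of ACGTG or GCGTG, or of TGANTCA in Mmp13 and Mmp3, on either strand.
Mmp28: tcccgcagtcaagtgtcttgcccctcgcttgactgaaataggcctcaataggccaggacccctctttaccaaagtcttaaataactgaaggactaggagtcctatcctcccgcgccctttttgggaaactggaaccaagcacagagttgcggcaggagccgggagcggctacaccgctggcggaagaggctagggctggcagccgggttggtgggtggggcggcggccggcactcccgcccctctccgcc
Mmp11: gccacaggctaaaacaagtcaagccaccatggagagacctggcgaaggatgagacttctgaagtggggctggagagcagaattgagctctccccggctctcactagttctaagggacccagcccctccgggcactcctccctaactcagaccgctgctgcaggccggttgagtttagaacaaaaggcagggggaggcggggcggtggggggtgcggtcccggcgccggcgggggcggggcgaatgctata
Mmp15: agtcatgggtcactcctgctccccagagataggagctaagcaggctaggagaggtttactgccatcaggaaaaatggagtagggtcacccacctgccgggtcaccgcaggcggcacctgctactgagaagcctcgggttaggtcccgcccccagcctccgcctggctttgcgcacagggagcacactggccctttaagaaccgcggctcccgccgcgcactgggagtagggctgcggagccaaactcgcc
Mmp14: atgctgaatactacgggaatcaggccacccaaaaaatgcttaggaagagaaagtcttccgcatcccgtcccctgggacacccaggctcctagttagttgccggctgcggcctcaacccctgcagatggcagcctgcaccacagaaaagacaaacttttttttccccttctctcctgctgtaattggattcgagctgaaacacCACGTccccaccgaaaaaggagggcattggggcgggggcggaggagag
Adamts17: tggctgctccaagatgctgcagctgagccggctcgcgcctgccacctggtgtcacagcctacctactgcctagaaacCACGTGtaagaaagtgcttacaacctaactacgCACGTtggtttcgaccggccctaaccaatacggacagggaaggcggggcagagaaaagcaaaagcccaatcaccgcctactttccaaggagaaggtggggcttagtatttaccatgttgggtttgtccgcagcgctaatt
Mmp13: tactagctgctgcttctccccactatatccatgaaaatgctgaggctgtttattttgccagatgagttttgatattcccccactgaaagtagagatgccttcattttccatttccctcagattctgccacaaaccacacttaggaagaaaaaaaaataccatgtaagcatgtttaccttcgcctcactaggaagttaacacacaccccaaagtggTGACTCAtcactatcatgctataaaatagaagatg
Mmp3: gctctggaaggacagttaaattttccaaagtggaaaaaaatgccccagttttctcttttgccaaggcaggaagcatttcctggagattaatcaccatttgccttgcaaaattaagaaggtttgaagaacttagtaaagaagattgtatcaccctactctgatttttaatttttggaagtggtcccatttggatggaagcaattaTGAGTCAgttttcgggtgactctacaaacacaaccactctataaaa

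Coordinates of the sequences in GRCm38, each written in the direction of the gene, were chr11:83463041-83463290 (minus strand) for Mmp28, chr10:75932503-75932752 (minus strand) for Mmp11, chr8:95352046-95352295 (plus strand) for Mmp15, chr14:54431348-54431597 (plus strand) for Mmp14, chr7:66839485-66839734 (plus strand) for Adamts17, chr9:7272264-7272513 (plus strand) for Mmp13 and chr9:7445572-7445821 (plus strand) for Mmp3. No match lay before the RefSeq starts of Mmp28, Mmp11 and Mmp15. The counted span of Mmp11 runs to 75936496, so its window lies inside that span. Sequence before the outer end of Mmp11 was not searched. The match in Mmp14 began at position -48 from the start, and those in Adamts17 began at -173, -172 and -140, the first 2 of which form 1 CACGTG palindrome. The AP-1 site began at -35 in Mmp13 and at -46 in Mmp3. Among genes that entered the test below, the core was in 0 of 2 windows of genes above mock in all 3 knockout libraries (Mmp11 and Mmp28), in 2 of 4 windows of genes below mock in all 3, and in 9 of 16 windows of the rest.

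Total counts were 12910058, 13193264 and 13081007 in c11, c15 and c22, and 12383719 in mock. A count of 0 allowed a level of up to 0.232 CPM in c11, 0.227 in c15 and 0.229 in c22, and up to 0.242 CPM in mock, for counting error only. Hif1a, the targeted gene (chromosome 12, 73901375 to 73947530, GRCm38, plus strand), was at 104 CPM in c11, 98.7 in c15 and 22.3 in c22, against 107 CPM in mock. The low value was that of c22 alone, and the fitted log2 fold change of knockout over mock (knockout minus mock on the log2 scale) came to -0.52 with an SE of 0.80 (edgeR adjusted p 1.00). A deletion of part of the gene need not lower its summed reads, and where Hif1a was cut is not given in the sources used here, so this level does not check the labels. The osteoblast lineage markers Runx2, Sp7 and Ibsp were detected in all 4 libraries, as labelled. Lists of host cell markers, plotted after the account of the genes, lay lower in the knockout libraries in several cases. Macrophage markers summed to 251 CPM in c11, 333 in c15 and 433 in c22, against 805 CPM in mock. In such bulk RNA, fewer cells of a type and less RNA per cell cannot be told apart.

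No MMP, ADAMTS or TIMP gene passed the test of knockout against mock. Of the 45 genes, 30 had enough reads to enter the test (the 29 with at least 1 CPM and Adamts15), and 0 were called higher and 0 lower at an adjusted p of 0.05 by edgeR, where the background was 0 of 15706 genes tested (0%) in either direction. At an unadjusted edgeR p under 0.05 there were 2 higher genes, Mmp28 and Mmp11, against 1.31% of all genes tested, and 1 lower gene, Mmp15, against 1.93%. DESeq2 called 0 of the 30 in either direction, while it called 0.306% of all genes higher and 0.42% lower. Limma-voom called 0 of the 30 and 0% of all genes. With 1 mock library, an exact permutation test could not go below 0.25 for any gene. The p-values rest on the spread between the knockout libraries, in which differences between lines and technical differences cannot be told apart.

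Counted by side, 4 of the 30 genes lay above mock in all 3 knockout libraries (Mmp11, Mmp19, Mmp28 and Adamts7), against 21% of all genes tested. Below mock in all 3 were 6 of the 30 (Mmp9, Mmp15, Mmp16, Mmp24, Adamts17 and Timp1), against 22.5% of all genes tested, and 5 once the libraries were scaled by TMM, where Timp1 overlapped mock. Neither count exceeds its background share. For the other 20 genes the mock value fell inside the range of the knockout libraries. The median log2 fold change was 0.18 for the 30 genes and 0.05 for all genes tested. The sizes differed more, with a median absolute log2 fold change of 0.73 for the 30 genes and 0.31 for all genes tested.

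**Figure D1:**
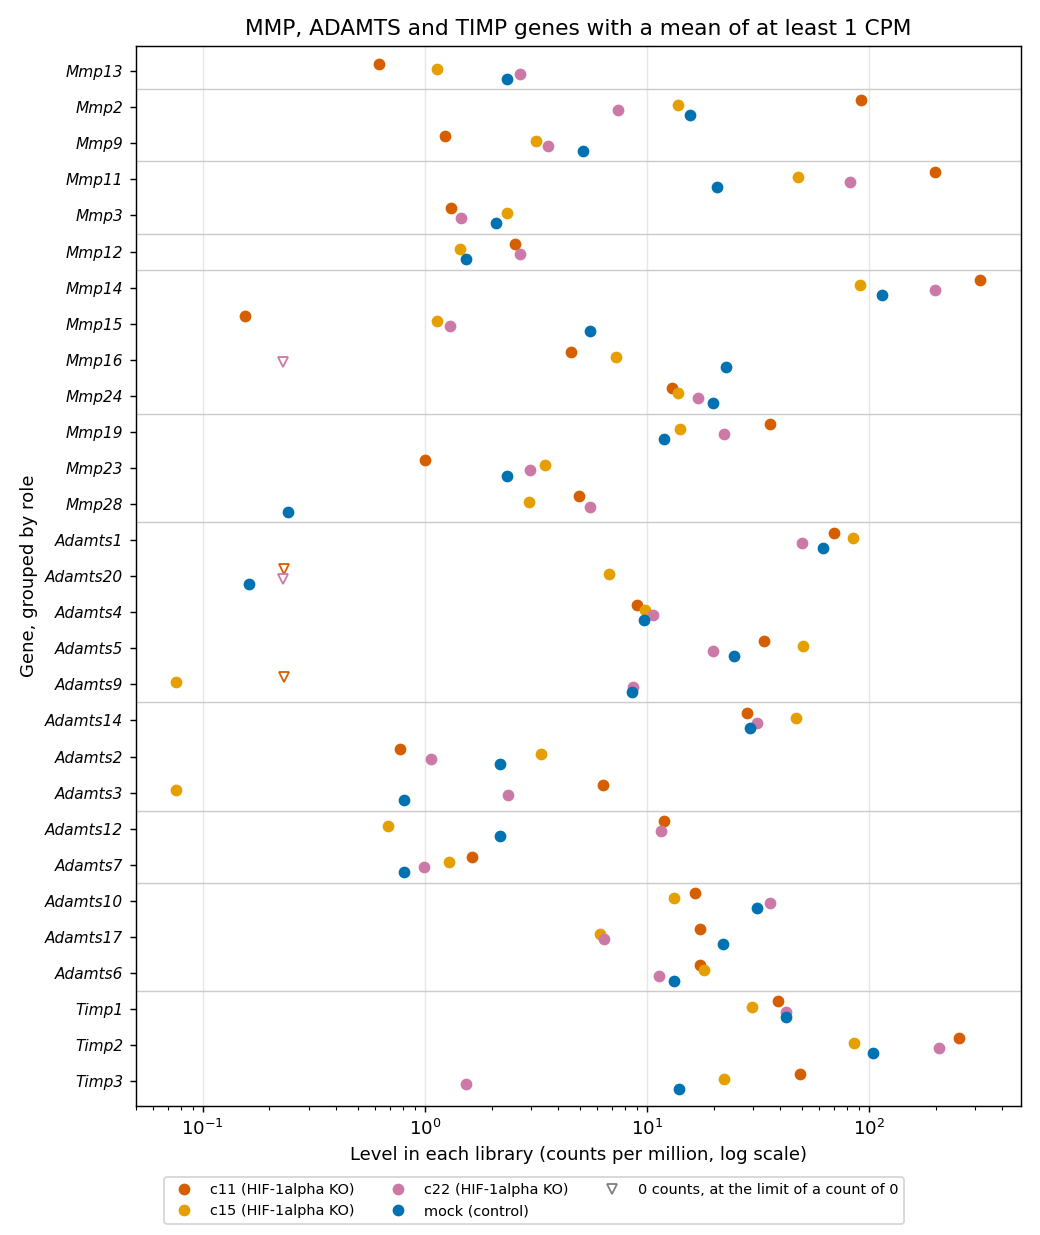
Level of each of the 29 genes with a mean of at least 1 CPM in each library (horizontal axis, CPM on a log scale), grouped by role down the page, with 1 point per library and open triangles for a count of 0 drawn at the level that such a count allows. Mmp14 and Timp2 lie farthest right, Mmp28 has its mock point apart on the left, and Mmp15 and Mmp16 have their mock points on the right of all knockout points.

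The secreted collagenases Mmp13 and Mmp8, which make the first cut in fibrillar collagen, were scarce. Mmp13, the main collagenase of mouse bone, was at 0.620 CPM in c11, 1.14 in c15 and 2.68 in c22, against 2.34 CPM in mock, so that c22 lay above mock and the other knockout libraries below it. Mmp8, the collagenase of neutrophils, had 1 read in c11, 3 in c15 and 10 in c22, against 3 reads in mock. Mmp1b, a rodent relative of collagenase 1, had no read in any library. Its relative Mmp1a was not among the genes that met the rule, so its level is not described.

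The gelatinases, which digest denatured collagen and collagen IV, are Mmp2 and Mmp9. Mmp2 (chromosome 8, 92827291 to 92853420), whose precursor is activated at the cell surface by MMP14 and TIMP2, was at 91.9 CPM in c11, 13.8 in c15 and 7.42 in c22, against 15.7 CPM in mock. Only c11 was above mock, and the knockout mean of 37.7 ± 47.1 CPM (SD, n = 3) rests on it. The edgeR fit gave a log2 fold change of 1.26 with an SE of 1.48 (adjusted p 1.00), and -0.55 without c11. Mmp9, the gelatinase of osteoclasts, macrophages and neutrophils, was at 1.24 CPM in c11, 3.18 in c15 and 3.59 in c22, against 5.17 CPM in mock. All 3 knockout libraries lay below mock. The sums of the macrophage markers had the same order over the 4 libraries, while osteoclast markers summed to 0.852 CPM in c11, 1.59 in c15 and 1.30 in c22, against 2.99 CPM in mock, and their part in the Mmp9 level was not tested.

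Among the stromelysins, Mmp11 was far more abundant than its relatives. Mmp11 (ENSMUSG00000000901, chromosome 10, 75923222 to 75936496, minus strand) encodes stromelysin 3, which is activated inside the cell by furin. It was at 198 CPM in c11, 47.8 in c15 and 82.0 in c22, against 20.8 CPM in mock (95% exact Poisson interval 18.4 to 23.5). Each knockout library lay above the mock interval, but the 3 differed among themselves by more than 4-fold, with c11 highest. The knockout mean of 109 ± 78.9 CPM (SD, n = 3) was 5.25 times the mock value. The log2 fold change was 2.39 (SE 0.91, unadjusted edgeR p 0.042, adjusted p 1.00), 1.66 without c11, and DESeq2 gave an adjusted p of 0.135. Chchd10, an antisense neighbour whose span overlaps that of Mmp11, had 23 reads in c11, 4 in c15 and 13 in c22, against 3 reads in mock, far fewer than the 258 to 2560 reads of Mmp11. Mmp3, stromelysin 1, was at 1.32 CPM in c11, 2.35 in c15 and 1.45 in c22, against 2.1 CPM in mock. Mmp10, stromelysin 2, had 1 read in c11, 5 in c15 and 0 in c22, against 1 read in mock. Mmp12, the elastase of macrophages, was at 2.56 CPM in c11, 1.44 in c15 and 2.68 in c22, against 1.53 CPM in mock, with c11 and c22 above mock, while the macrophage marker sums of all 3 knockout libraries were below it. Mmp7, matrilysin, had no read.

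The membrane-type MMPs, which stay anchored in the cell surface, held the most abundant gene by reads and 3 of the 6 genes that lay below mock in all 3 libraries. Mmp14 (chromosome 14, 54431612 to 54445364, plus strand) encodes MT1-MMP, a collagenase at the surface of invading cells. It was at 318 CPM in c11, 91.4 in c15 and 198 in c22, against 114 CPM in mock (95% interval 108 to 120). Libraries c11 and c22 were above the mock interval and c15 below it. In the edgeR fit the log2 fold change came to 0.82 with an SE of 0.70 (adjusted p 1.00), and to 0.36 without c11.

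Mmp15 (ENSMUSG00000031790, chromosome 8, 95352268 to 95375080, plus strand) encodes MT2-MMP. It had 2 reads in c11, 15 in c15 and 17 in c22, against 69 reads in mock, or 0.155, 1.14 and 1.30 CPM, against 5.57 CPM in mock (95% interval 4.34 to 7.05). The groups did not overlap, and the mock value was 6.45 times the knockout mean of 0.864 ± 0.619 CPM (SD, n = 3). The log2 fold change was -2.66 (SE 1.03, unadjusted edgeR p 0.045, adjusted p 1.00). Mmp16, which encodes MT3-MMP, was at 4.57 CPM in c11, 7.28 in c15 and 0 in c22, against 22.9 CPM in mock. Its level in c22 was at least 99.6-fold below the observed mock level, with 3 reads taken as the limit of a count of 0 per library. This bound leaves out the counting error of mock (95% interval 20.3 to 25.7 CPM). The log2 fold change of -2.53 (SE 1.67, edgeR adjusted p 1.00) carried a wide error, and it was -3.34 without c15, -1.95 without c22 and -4.37 with limma-voom. Mmp24, which encodes MT5-MMP, was at 12.9 CPM in c11, 13.9 in c15 and 17.05 in c22, against 19.9 CPM in mock, with a log2 fold change of -0.44 (SE 0.41, edgeR adjusted p 1.00). Of the lipid-anchored forms, Mmp17 had 1 read in c11, 7 in c15 and 7 in c22, against 9 in mock, and Mmp25, a leukocyte form, had 3, 9 and 6 reads, against 3 in mock.

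The remaining MMPs held the smallest p of the family. Mmp28 (ENSMUSG00000020682, chromosome 11, 83440768 to 83463071, minus strand) encodes epilysin, a secreted MMP with a furin site that is known from skin, testis and wound edges. It had 64 reads in c11, 39 in c15 and 73 in c22, against 3 reads in mock, or 4.96, 2.96 and 5.58 CPM, against 0.242 CPM in mock (95% interval 0.050 to 0.708). All 3 knockout libraries were far above the mock interval. The log2 range among them was 0.82 (0.5 CPM added), where the median was 0.69 over all genes tested and 1.42 over the 30 members tested. Their pooled level was 18.5 times the mock level (95% counting interval 6.24 to 90.8, from 176 against 3 reads). The log2 fold change was 4.17 (SE 0.94, unadjusted edgeR p 0.005, adjusted p 0.746), and DESeq2 gave an adjusted p of 0.0763. The antisense gene 1700020L24Rik, whose span overlaps that of Mmp28, had 21 reads in c11, 18 in c15 and 37 in c22, against 4 reads in mock. The kit keeps strand but the strand setting of the counting is not given, so whether both genes share reads was not tested.

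Mmp19, an MMP that cuts basement membrane proteins, was at 35.9 CPM in c11, 14.2 in c15 and 22.4 in c22, against 11.95 CPM in mock. The 3 knockout libraries lay above mock, c15 only a little, and the fit gave a log2 fold change of 1.01 (SE 0.62, edgeR adjusted p 1.00). Tmem198b, which overlaps it on the other strand, had 393 reads in c11, 252 in c15 and 407 in c22, against 198 in mock. Mmp23, an MMP held in the membrane by its amino-terminal end, was at 1.007 CPM in c11, 3.49 in c15 and 2.98 in c22, against 2.34 CPM in mock. Mmp27 had 0 reads in c11, 1 in c15 and 1 in c22, against 1 in mock. Mmp20, the enamel protease, and Mmp21, which acts in left-right patterning of the embryo, had no read.

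**Figure D2:**
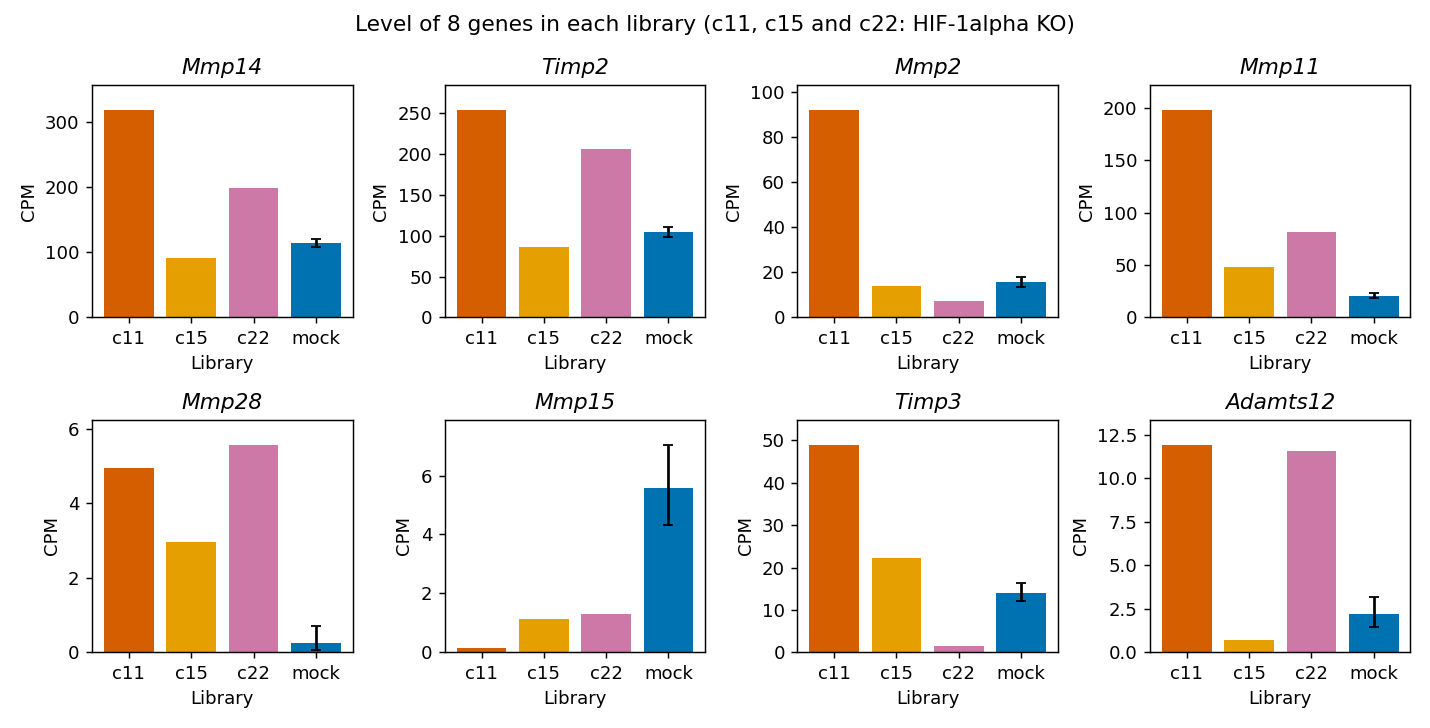
Level of 8 genes (vertical axes, CPM, linear from 0) in the knockout libraries c11, c15 and c22 and in mock, with 1 bar per library and the 95% exact Poisson interval on the mock bar. Mmp11 and Mmp28 have all knockout bars above the mock interval and Mmp15 has all below it, while Mmp2, Mmp14, Timp2, Timp3 and Adamts12 have knockout bars on both sides of mock.

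The ADAMTS enzymes that cut aggrecan and versican held genes of even level and genes near 0 in some libraries. Adamts1 (chromosome 16, 85793827 to 85803113, minus strand), which cuts versican in many tissues, was at 69.9 CPM in c11, 84.6 in c15 and 49.9 in c22, against 61.9 CPM in mock. Adamts5 lies 53.1 kb from it and encodes the main cartilage aggrecanase of the mouse. It was at 33.7 CPM in c11, 50.6 in c15 and 19.95 in c22, against 24.7 CPM in mock. Both genes had the order c15, c11, mock, c22, with a fitted log2 fold change of 0.14 (SE 0.39) for Adamts1 and 0.49 (SE 0.57) for Adamts5, each with an edgeR adjusted p of 1.00. Adamts4, the first aggrecanase described, was at 9.06 CPM in c11, 9.85 in c15 and 10.7 in c22, against 9.77 CPM in mock, with a log2 fold change of 0.02 (SE 0.46, edgeR adjusted p 1.00).

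Other genes of this group were near 0 in some libraries. Adamts9 (chromosome 6), a versicanase that is also needed for cilia, had 0 reads in c11, 1 in c15 and 113 in c22, against 106 reads in mock. Library c22 was at the mock level while c11 was at least 36.8-fold below the observed mock level, with 3 reads taken as the limit. The counting error of mock is left out of this bound. Fitted over all libraries, the log2 fold change came to -1.53, SE 2.32, with an edgeR adjusted p of 1.00, and to -7.48 without c22, a value that depends on the prior count because c11 and c15 have almost no reads. The genes on the other strand within its span were also at 0 in c11 and c15. Gm15737 had 10 reads in c22, against 13 in mock, 9530026P05Rik had 5 reads in c22, against 24 in mock, and A730049H05Rik had 12 reads in c22, against 1 in mock. Adamts20, which acts in pigment cell migration in the mouse, had 0 reads in c11, 89 in c15 and 0 in c22, against 2 reads in mock, with c15 far above every other library (fitted log2 fold change 3.73, SE 3.69, edgeR adjusted p 1.00). Adamts15 had 2 reads in c11, 12 in c15 and 0 in c22, against 4 in mock. Adamts8 had 0 reads in c11, 1 in c15 and 2 in c22, against 5 in mock.

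Procollagen N-propeptidases remove the amino-terminal propeptide of fibrillar procollagens. Adamts14 was the most abundant of them by reads, at 28.2 CPM in c11, 46.9 in c15 and 31.5 in c22, against 29.2 CPM in mock, with a log2 fold change of 0.29 (SE 0.43, edgeR adjusted p 1.00). Adamts2, the main enzyme for procollagen I in skin, was at 0.775 CPM in c11, 3.34 in c15 and 1.07 in c22, against 2.18 CPM in mock. Adamts3, which also processes the lymphatic growth factor VEGFC, was at 6.35 CPM in c11, 0.0758 in c15 and 2.37 in c22, against 0.808 CPM in mock, with a log2 fold change of 1.84 (SE 1.98, edgeR adjusted p 1.00), 0.62 without c11. Each of the 3 had mock inside the range of the knockout libraries.

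Adamts7 and Adamts12 cut cartilage oligomeric matrix protein (COMP). Adamts12 was at 11.9 CPM in c11, 0.682 in c15 and 11.5 in c22, against 2.18 CPM in mock. Libraries c11 and c22 were close to each other and above mock, and c15 was below mock. The edgeR fit gave a log2 fold change of 1.88 with an SE of 1.58 (adjusted p 1.00). Adamts7 was at 1.63 CPM in c11, 1.29 in c15 and 0.994 in c22, against 0.808 CPM in mock, a difference of 13 to 21 reads against 10. Adamts13, the protease of von Willebrand factor, had 2 reads in c11, 6 in c15 and 0 in c22, against 3 in mock.

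Adamts10 and Adamts17, whose mutation in humans causes short stature with lens defects, act on fibrillin microfibrils. Adamts17 was at 17.4 CPM in c11, 6.14 in c15 and 6.42 in c22, against 21.96 CPM in mock. All 3 knockout libraries lay below mock, c11 the least, and the fit gave a log2 fold change of -1.14 (SE 0.68, edgeR adjusted p 1.00), -1.79 without c11. Adamts10 was at 16.6 CPM in c11, 13.3 in c15 and 35.9 in c22, against 31.3 CPM in mock, with a log2 fold change of -0.50 (SE 0.63, edgeR adjusted p 1.00). Adamts6, the closest relative of Adamts10, was at 17.4 CPM in c11, 18.1 in c15 and 11.3 in c22, against 13.3 CPM in mock, with a log2 fold change of 0.23 (SE 0.47, edgeR adjusted p 1.00). Adamts16 had 3 reads in c11, 3 in c15 and 2 in c22, against 7 in mock, Adamts18 had 2, 0 and 1 reads, against 0, and Adamts19 had none.

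Inhibitor levels differed between genes in how even they were. Timp1, an inhibitor of most secreted MMPs, was at 38.9 CPM in c11, 29.8 in c15 and 42.2 in c22, against 42.4 CPM in mock. Library c22 was within 1 CPM of mock, and the fit gave a log2 fold change of -0.19 (SE 0.35, edgeR adjusted p 1.00). Timp2, which blocks MMPs and also carries the MMP2 precursor to MMP14, was at 254 CPM in c11, 86.0 in c15 and 206 in c22, against 105 CPM in mock. As for Mmp14, c11 was highest, c22 next, then mock, and c15 lowest, with a log2 fold change of 0.80 (SE 0.64, edgeR adjusted p 1.00), 0.51 without c11. Timp3, which binds to the matrix and also blocks ADAMTS4, ADAMTS5 and ADAM17, was at 49.0 CPM in c11, 22.3 in c15 and 1.53 in c22, against 14.1 CPM in mock. Libraries c11 and c15 were above mock and c22 far below it. In the edgeR fit the log2 fold change came to 0.78 with an SE of 1.57 (adjusted p 1.00), and to -0.23 without c11. Timp4 had 1 read in c11, 5 in c15 and 4 in c22, against 0 in mock. Timp3 lies within the span of the antisense gene Syn3, which had 283 reads in c11, 117 in c15 and 13 in c22, against 78 in mock, and thus 0.447, 0.398 and 0.65 reads per Timp3 read, against 0.448 in mock.

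**Figure D3:**
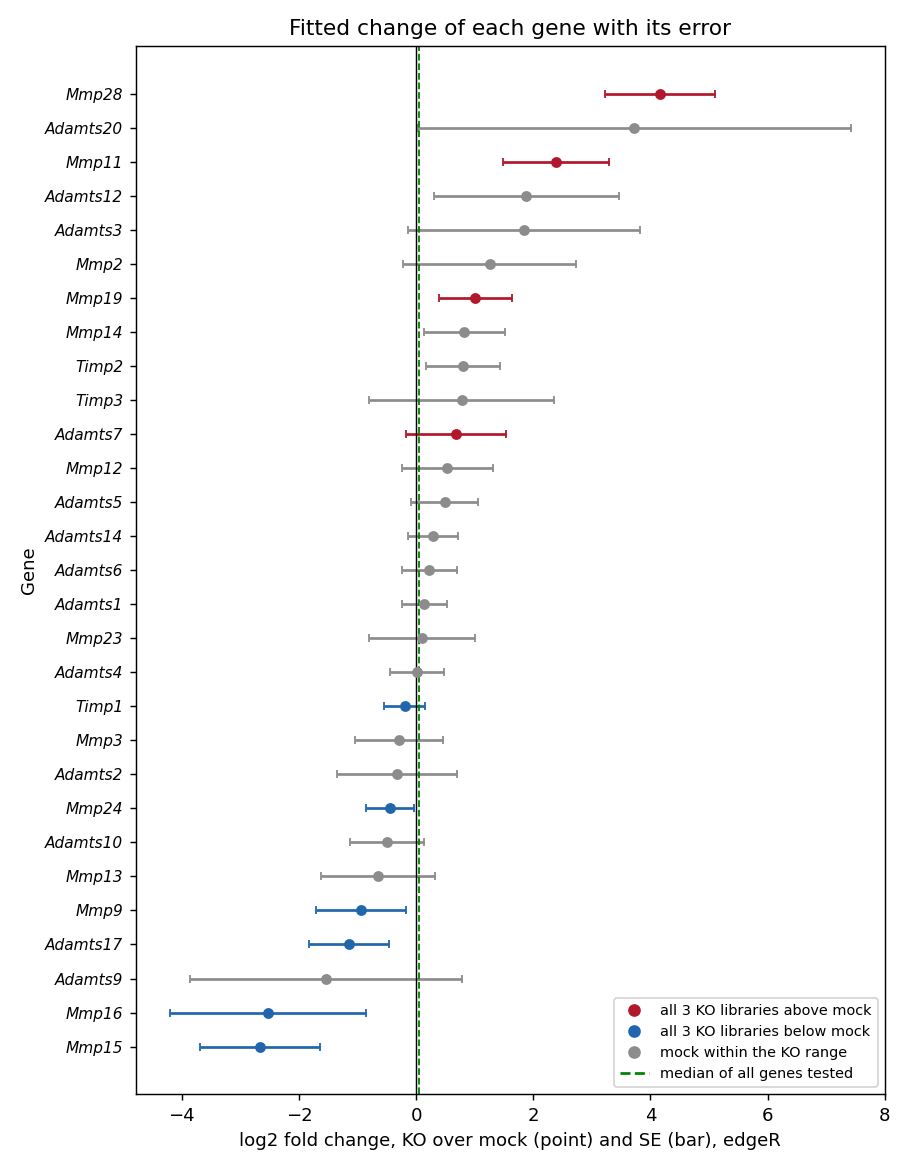
Fitted log2 fold change of knockout over mock by edgeR (horizontal axis, point) with its SE (bar) for the 29 genes with a mean of at least 1 CPM, ordered by value, in red where all 3 knockout libraries were above mock and in blue where all were below. The dashed line is the median of all genes tested at 0.05. Mmp28 at 4.17 is at the top and Mmp15 at -2.66 at the bottom, and the widest bar is that of Adamts20.

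Levels of enzymes and inhibitors were set side by side as CPM per kb of exonic length, a scale that allows genes to be compared. On this scale Timp1 was the most abundant gene of the set, with a mean level of 43.1 over the 4 libraries, followed by Timp2 at 41.8, Mmp11 at 31.4 and Mmp14 at 30.3. Adamts1 followed at 12.6 and Mmp2 at 9.55. The order changed with the library. Mmp11 led in c11 with 71.4 CPM per kb, while it was at 17.2 and 29.5 in c15 and c22, and at 7.50 in mock. The ranges over the 4 libraries overlapped between Timp1 and Timp2 and between Mmp11 and Mmp14, so neither pair differed beyond its spread.

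The ratio of Mmp14 to Timp2, per kb, was 0.817, 0.695 and 0.627 in c11, c15 and c22, against 0.713 in mock. The mock ratio lay inside the knockout range, and this range was narrow although each gene's own level in c11 was far above that in c15. Mmp2 to Timp2 varied more, at 0.418, 0.185 and 0.0415 in c11, c15 and c22, against 0.173 in mock. Summed over each family, MMP to TIMP levels per kb stood at 1.47, 0.861 and 0.810 in c11, c15 and c22, against 0.625 in mock. All 3 knockout ratios were above mock, with Mmp11 and Mmp14 as the main MMP terms. Without Mmp11, a choice made after seeing the data, the ratio was 0.848 in c11, 0.566 in c15 and 0.517 in c22, against 0.527 in mock, so that mock fell inside the knockout range. The ADAMTS to TIMP ratio was 0.285, 0.652 and 0.284 in c11, c15 and c22, against 0.412 in mock, with knockout libraries on both sides. The TIMP sum consisted mostly of Timp1 and Timp2, with Timp3 at a mean of 2.67 CPM per kb. Since TIMPs differ in the enzymes that they block, these ratios compare RNA levels and do not measure inhibition.

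Differences among the knockout libraries were wide at many of these genes. Between the highest and the lowest knockout library (0.5 CPM added), the median log2 range was 1.42 over the 30 genes and 0.69 over all genes tested. A 4-fold or larger range was found for 8 of the 30 (Mmp2, Mmp11, Mmp16, Adamts3, Adamts9, Adamts12, Adamts20 and Timp3), against 7.26% of all genes tested. Among genes with a mean of at least 5 CPM it was 5 of 17, against 5.38% of all such genes. Adamts9, Adamts20 and Mmp16 each had no read in at least 1 knockout library and 6.75 CPM or more in another.

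No knockout library was the high one throughout. The highest knockout value was in c11 for 10 of the 30 genes, in c15 for 10 and in c22 for 10, against 31.8%, 35.2% and 33% of all genes tested. Genes with c11 and c22 above mock and c15 below were Mmp12, Mmp14, Adamts3, Adamts12 and Timp2, 5 of the 30, against 13.9% of all genes tested. Adamts1, Adamts5, Adamts6 and Timp3 had c11 and c15 above and c22 below, 4 of the 30 against 9.75%. Mmp2 alone was above mock in c11 only, against 7.11% of all genes. Mmp3, Adamts2, Adamts15 and Adamts20 were above it in c15 only, against 12.9%, and Mmp13, Adamts9 and Adamts10 in c22 only, against 7.71%. Mmp23, Adamts4 and Adamts14 were above it in c15 and c22, against 5.23%.

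**Figure D4:**
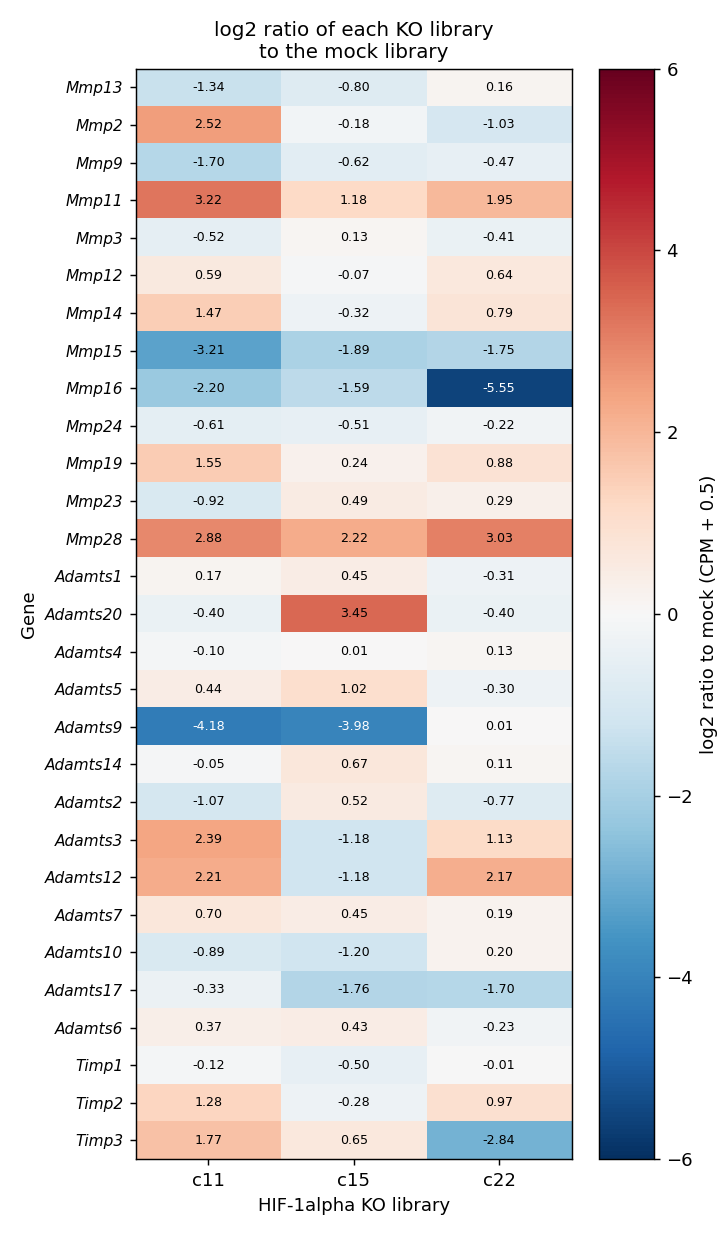
Log2 ratio of each knockout library (columns) to mock for the 29 genes (rows, grouped by role), computed from CPM with 0.5 added, red above mock and blue below. In 4 rows all columns were above mock and in 6 all were below, among them Mmp11, Mmp28, Mmp15 and Mmp16. Adamts9, Adamts12, Adamts20 and Timp3 show strong colours that differ between columns.

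A cluster that holds 9 of the MMP genes followed here lies on chromosome 9 between 7272514 and 7699585, a span of 427 kb. It holds Mmp13, Mmp12, Mmp1b, Mmp3, Mmp10, Mmp8, Mmp27, Mmp20 and Mmp7, and it was almost silent in both groups. The highest level of any of the 9 in any library was 2.68 CPM, 3 had no read, and 3 of the 9 had a mean of at least 1 CPM, against 26 of the 36 genes elsewhere. Summed levels were 4.65 CPM in c11, 5.61 in c15 and 7.64 in c22, against 6.38 CPM in mock, which lies within the knockout range. The 7 TGANTCA matches described above all fell in this cluster, in 7 of its 11 windows and 7 of its 9 genes (Mmp13, Mmp12, Mmp1b, Mmp3, Mmp10, Mmp20 and Mmp7), against 0 of the 23 windows of the other genes. A core ACGTG or GCGTG was in 2 of the 11 cluster windows and in 13 of the 23 others.

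Genes that act with these enzymes were taken from 6 lists, and none of their genes passed edgeR or DESeq2 at an adjusted p of 0.05. In the plasminogen system, which activates several MMP precursors, 8 of 10 genes were tested with a median log2 fold change of -0.08. Its activator Plat was at 7.13 CPM in c11, 5.91 in c15 and 12.9 in c22, against 16.7 CPM in mock, and so below mock in all 3 knockout libraries. The receptor Plaur was at 20.1 CPM in c11, 25.2 in c15 and 19.3 in c22, against 18.6 CPM in mock. Serpine2, a protease inhibitor, was at 115 CPM in c11, 3.18 in c15 and 74.9 in c22, against 53.1 CPM in mock, with c15 far below the rest as for Adamts12.

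Among regulators of MMP activity 11 of 14 genes were tested, with a median log2 fold change of -0.11, and 5 of the 11 lay below mock in all 3 libraries, against 22.5% of all genes tested, and 2 of the 11 above, against 21%. Bsg (CD147, an inducer of MMP synthesis) was at 340 CPM in c11, 393 in c15 and 456 in c22, against 724 CPM in mock. Furin, the convertase that activates MMP11, MMP14 and MMP28, was at 99.7 CPM in c11, 85.9 in c15 and 111 in c22, against 80.9 CPM in mock. Pcsk6, another convertase, was at 12.6 CPM in c11, 72.01 in c15 and 32.9 in c22, against 81.5 CPM in mock. Spock2, a proteoglycan that modulates activation of MMP2, was at 10.4 CPM in c11, 92.8 in c15 and 6.04 in c22, against 22.05 CPM in mock.

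ADAMTS-like proteins resemble ADAMTS enzymes without the protease domain, and all 6 were tested, with a median log2 fold change of 0.24. Adamtsl3 was at 10.1 CPM in c11, 24.0 in c15 and 11.2 in c22, against 2.26 CPM in mock, so that all 3 knockout libraries were above mock. It had a fitted log2 fold change of 2.74 (SE 0.79, edgeR adjusted p 1.00, DESeq2 adjusted p 0.0599). Adamtsl4, a microfibril protein of the eye, was at 36.7 CPM in c11, 20.8 in c15 and 33.2 in c22, against 13.6 CPM in mock, again above mock in all 3.

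Of 14 substrates, 11 were tested, with a median log2 fold change of 1.10. Only 1 of the 11 lay above mock in every knockout library, against 21% of all genes tested. Another 2 of the 11 lay below mock in every knockout library, against 22.5%. The rest had knockout libraries on both sides of mock. Col1a1, the main bone collagen chain, was at 1913 CPM in c11, 1093 in c15 and 4700 in c22, against 862 CPM in mock. Col4a1, a basement membrane chain, was at 113 CPM in c11, 6.67 in c15 and 1.61 in c22, against 11.9 CPM in mock, with the same order of the 4 libraries as Mmp2. Versican (Vcan) was at 5.65 CPM in c11, 13.1 in c15 and 5.81 in c22, against 17.7 CPM in mock, and fibronectin (Fn1) at 3871, 4383 and 1276 CPM, against 3578 CPM in mock.

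ADAM sheddases (7 of 9 tested, median log2 fold change -0.29) and other matrix proteases (9 of 11 tested, median 0.21) held no called gene either. Adam10, a general sheddase, was at 158 CPM in c11, 144 in c15 and 146 in c22, against 133 CPM in mock, and Adam9 at 109, 93.8 and 74.6 CPM, against 80.8 CPM. Adam15 was at 155 CPM in c11, 126 in c15 and 148 in c22, against 176 CPM in mock, and Adam8, a leukocyte form, at 7.13, 9.85 and 12.2 CPM, against 12.1 CPM. Ctsd, a lysosomal protease, was at 169 CPM in c11, 100 in c15 and 263 in c22, against 109 CPM in mock, and the secreted protease Htra1 at 109, 63.5 and 172 CPM, against 74.3 CPM. Fap, a fibroblast protease, was at 12.1 CPM in c11, 6.90 in c15 and 3.36 in c22, against 16.3 CPM in mock, and Ctss, a macrophage protease, at 17.5, 26.8 and 41.8 CPM, against 42.1 CPM.

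**Figure D5:**
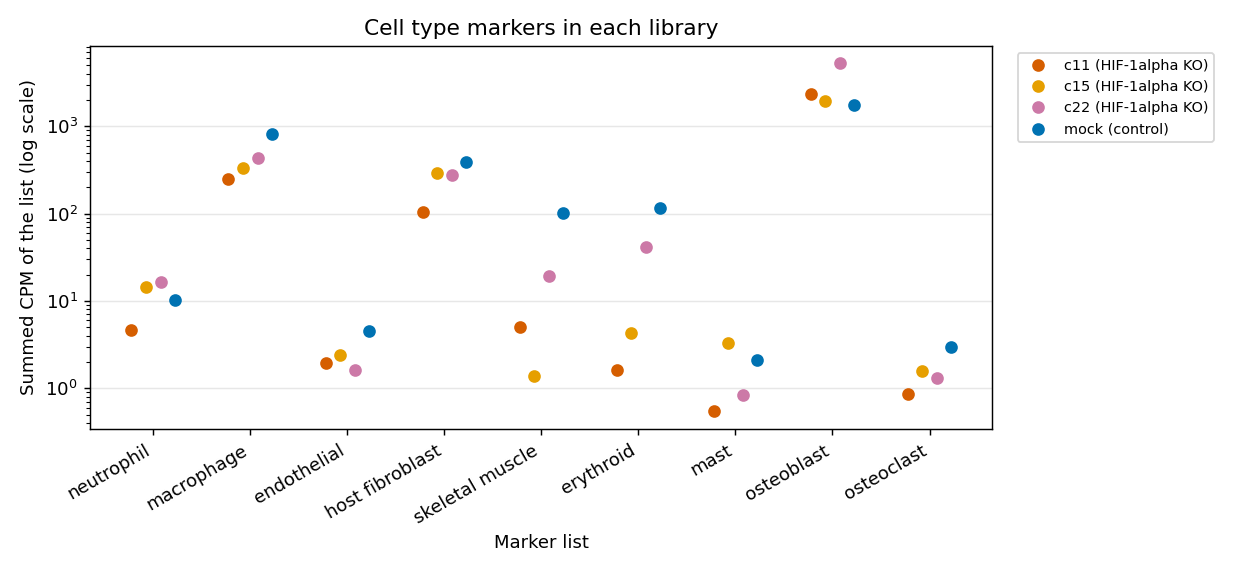
Summed level of each cell type marker list (vertical axis, summed CPM on a log scale) in the knockout libraries c11, c15 and c22 and in mock, with 1 point per library. Macrophage, endothelial, host fibroblast, skeletal muscle, erythroid and osteoclast sums were lower in all knockout libraries than in mock, and osteoblast sums were higher, mostly through Col1a1, while 4 of the 8 osteoblast markers were below mock in all knockout libraries.

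Since host cells also express several of these proteases, the marker lists were set beside them. Skeletal muscle markers summed to 5.03 CPM in c11, 1.36 in c15 and 19.3 in c22, against 102 CPM in mock, and 7 of 7 tested markers were below mock in all 3 libraries, where 22.5% of all genes tested were. Erythroid markers summed to 1.63 CPM in c11, 4.24 in c15 and 41.1 in c22, against 116 CPM in mock, with 5 of 5 tested below mock in all 3. Of the macrophage markers 8 of 9 tested were below mock in all 3, and Marco had a read in c15 alone. Host fibroblast markers summed to 105 CPM in c11, 292 in c15 and 277 in c22, against 386 CPM in mock, with 4 of 6 tested below mock in all 3. Mmp9, Mmp15, Mmp16, Mmp24, Adamts17 and, before TMM scaling, Timp1 also lay below mock in all 3, 6 of the 30 members tested against 22.5%. Among the knockout libraries, Mmp9, Mmp15 and Mmp24 rose from c11 to c15 to c22, as did the macrophage and erythroid sums. Mmp16 had no read in c22, where those sums were highest, and Adamts17 was highest in c11, where they were lowest. The part of host cells in the levels of these genes was not tested.

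Neutrophil markers summed to 4.65 CPM in c11, 14.6 in c15 and 16.5 in c22, against 10.2 CPM in mock, and 6 of the 11 (Ly6g, Mpo, Elane, Camp, Ltf and Ngp) were at 0 in all libraries, beside the few reads of Mmp8 and Mmp25. Endothelial markers summed to 1.94 CPM in c11, 2.43 in c15 and 1.61 in c22, against 4.52 CPM in mock, and mast cell markers to 0.542, 3.26 and 0.841 CPM, against 2.1 CPM. The osteoblast list summed to 2357 CPM in c11, 1955 in c15 and 5252 in c22, against 1744 CPM in mock, mostly reads of Col1a1. Of its 8 markers, all tested, 4 lay below mock in all 3 libraries, against 22.5% of all genes tested, and Col1a1 alone lay above, and the median log2 fold change of the list was -0.55. Runx2, which drives Mmp13 in bone, was at 133 CPM in c11, 139 in c15 and 116 in c22, against 245 CPM in mock, and was below mock in all 3.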

How the data were processed

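The authors deposited raw read counts for each Ensembl gene and library, and per the labels' protocols the libraries were poly(A) RNA prepared with a kit that keeps strand. The submitters' processing notes name HISAT2 2.1.0 and featureCounts 1.6.3, the build GRCm38, and Trimmomatic 0.38 with FastQC 0.11.7 and SAMtools 1.9. The settings for strand and for reads that map to several places are not given in the sources used here, so reads of overlapping genes or of close copies may be shared. Total counts per library were between 12383719 and 13193264. Every pair of libraries differed by more than sampling noise (chi-square divided by the number of genes, 48.3 to 90.3).

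CPM was a gene's count per 1000000 reads of the total of all 55487 genes in its column. Genes kept by filterByExpr (15706 genes, 99.9% of counts) were scaled by TMM. The 2-sided quasi-likelihood test of edgeR 4.0.16 (R 4.3.3, robust option) compared 3 knockout libraries against 1 mock library, with Benjamini-Hochberg adjustment over all genes tested and a threshold of 0.05. The fit assumes that mock varies like the knockout libraries (2 residual degrees of freedom, biological coefficient of variation 0.442). DESeq2 1.42.0, limma-voom (limma 3.58.1), other scalings, other filters and the omission of each knockout library were alternatives. Intervals on counts are 95% exact Poisson intervals, which cover counting error only. Exonic lengths are from GENCODE M21, in which all 45 genes have the coordinates of the deposited table. Promoter windows are those of RefSeq.

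Members whose mean reached 1 CPM were named with the level in every library. Those at 5 CPM or more, and the 3 highest and 3 lowest fold changes, were given with a fold change, SE and adjusted p. From each list of related genes, the 2 highest and the 2 lowest fold changes at a mean of at least 5 CPM were named. Runx2, overlapping genes and leading markers were chosen for naming with their values in view. The values of 3 genes outside the family are not reported here. The members and lists were chosen with earlier results of these data known, so no test was made over a list. The fit was run on simulated data with known changes, in which all genes had the same dispersion. This does not test it on the uneven spread of these libraries. No column of per-sample values was left unused (0 columns).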

Additional observations from a re-analysis of the deposited data

How the results depend on the processing

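No MMP, ADAMTS or TIMP gene was called under any of the 11 alternatives. The number of all genes called was 0 and became 69 without a filter on low counts and 114 with DESeq2. The cause was not tested. The median log2 fold change of the tested members was 0.18, became 0.062 with limma-voom, and ranged from 0.0268 (without c15) to 0.36 (without c22) when 1 knockout library was left out. Of 29 named genes, 23 kept their direction in every alternative and 6 did not. Adamts4 reversed with upper quartile factors (-0.006). With limma-voom, Mmp23 was at -0.0901 and Timp3 at -0.22. Other values that moved by over 1.5 times with limma-voom were 0.44 for Mmp2, -4.37 for Mmp16 and 0.11 for Adamts20. The same held for Adamts9 at -4.69, Adamts2 at -0.61, Adamts3 at 0.50 and Adamts12 at 1.06. With 1 knockout library left out, log2 fold changes ranged from -0.0523 to 0.0926 for Adamts4, -0.21 to 0.48 for Mmp23, -0.23 to 1.33 for Timp3, -0.55 to 1.74 for Mmp2, -1.23 to 0.0272 for Adamts2 and -0.0513 to 0.31 for Adamts1. Over all alternatives Mmp28 ranged from 3.96 to 4.39, Mmp11 from 1.66 to 2.74 and Mmp15 from -3.09 to -2.16, with smallest adjusted p of 0.0763, 0.135 and 0.607. Scaling by TMM, RLE or upper quartile factors, chosen after seeing the data, left 4 genes above mock in all 3 knockout libraries and moved those below from 6 to 5. Without c15, Adamts20 did not pass the filter and has no value. No paired analysis was possible because mock has 1 library and the columns carry no replicate number. The depth limits genes under about 1 CPM, where a library holds some 13 reads or fewer.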
